A study of Rattus norvegicus with 18 samples.

Results

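Chemokines and their receptors were followed in the kidneys of rats with adenine-induced kidney disease, with and without the agent SZ-A. The set was defined by name alone, as every gene of the deposited table whose symbol starts with Ccl, Cxcl, Cx3cl, Xcl, Ccr, Cxcr, Cx3cr, Xcr or Ackr and a number, and it holds 54 of 32116 genes, 33 ligands and 21 receptors. Whole-kidney RNA was sequenced in 18 libraries, 6 in each of 3 groups. SZ rats received daily adenine (100 mg per kg) plus daily SZ-A (300 mg per kg), CKD rats received the same adenine dose alone, and NC rats were left untreated. No group received SZ-A without adenine, and strain, age, sex, route and length of dosing, like the nature of SZ-A, are not stated in the labels used here. The labels number the libraries within each group without saying that each came from its own animal, so the p-values below measure the spread between libraries, which may be technical in part.

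Chemokines are small secreted proteins that steer migrating cells through receptors coupled to Gi proteins, and their classes (CC, CXC, C and CX3C) are named for the spacing of their first cysteines. Inflammatory members such as Ccl2 are switched on by cytokines and by nuclear factor kappa B, while homeostatic members such as Ccl19, Ccl21, Cxcl12 and Cxcl13 place lymphocytes and stem cells within tissues. In the injured kidney, tubular and endothelial cells and infiltrating leukocytes are known sources of these ligands. Most of the signalling receptors sit on leukocytes, whereas atypical receptors (Ackr) bind chemokines without signalling through G proteins.

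The promoters of a few of these genes are shown first. Whether promoters had a part in the changes between groups was not tested. RefSeq promoters (build GRCr8, 250 bases before to 50 bases after the start) matched 40 of the 54 genes by symbol. Their share of G and C had a median of 52% over 27 ligand promoters (42.7% to 66.7%) and 48.3% over 13 receptor promoters (36.7% to 58%), beside 51.7% over all 33365 promoters of that length. The lines below give the called gene of smallest adjusted p in any of the 3 comparisons among those with a RefSeq promoter, for CC ligands (Ccl7), CXC ligands (Cxcl13) and receptors (Ccr2), and the CX3C ligand Cx3cl1, 5′ to 3′ on the strand of the gene. G and C made up 49% of the Ccl7 promoter, 45.3% of that of Cxcl13, 66.3% of that of Cx3cl1 and 42% of that of Ccr2.

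Ccl7, chr10:67513845-67514144, plus strand: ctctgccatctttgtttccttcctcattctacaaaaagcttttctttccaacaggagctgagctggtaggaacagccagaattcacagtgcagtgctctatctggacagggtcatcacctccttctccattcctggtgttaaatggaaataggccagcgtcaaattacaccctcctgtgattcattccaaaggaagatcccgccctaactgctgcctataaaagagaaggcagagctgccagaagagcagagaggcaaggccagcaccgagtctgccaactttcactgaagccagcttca
Cxcl13, chr14:13917871-13918170, minus strand: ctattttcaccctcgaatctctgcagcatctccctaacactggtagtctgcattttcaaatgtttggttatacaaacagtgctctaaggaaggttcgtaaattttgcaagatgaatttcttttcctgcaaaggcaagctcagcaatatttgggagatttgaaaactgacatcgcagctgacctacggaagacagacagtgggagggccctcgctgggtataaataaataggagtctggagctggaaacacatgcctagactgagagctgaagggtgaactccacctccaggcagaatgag
Cx3cl1, chr19:10242771-10243070, minus strand: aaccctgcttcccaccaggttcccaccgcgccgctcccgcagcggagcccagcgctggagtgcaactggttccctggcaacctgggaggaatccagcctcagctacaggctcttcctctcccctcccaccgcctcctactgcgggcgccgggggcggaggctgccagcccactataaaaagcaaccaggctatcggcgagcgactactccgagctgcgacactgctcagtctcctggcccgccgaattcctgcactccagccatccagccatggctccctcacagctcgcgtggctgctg
Ccr2, chr8:132611953-132612252, plus strand: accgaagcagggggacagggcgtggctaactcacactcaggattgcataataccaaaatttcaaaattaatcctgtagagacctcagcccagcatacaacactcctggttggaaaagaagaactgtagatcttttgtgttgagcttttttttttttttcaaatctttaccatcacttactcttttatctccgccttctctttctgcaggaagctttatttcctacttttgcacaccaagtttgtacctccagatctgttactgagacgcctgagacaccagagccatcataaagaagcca

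Levels are the deposited FPKM values (fragments per kilobase of gene, scaled by the authors' library sizes), which may be compared between genes because they are per length. Those sizes differed by group and were not the plain depth, averaging 1.04 (SZ), 1.14 (CKD) and 0.896 (NC) times the fragment totals. Behind them stood 15354358 to 18532375 fragments per library, and 1 FPKM was worth between 6.60 fragments (Cxcl14) and 189 fragments (Ccr9) in the median library. Genes were tested where at least 6 of the 18 libraries reached 1 FPKM, on log2(FPKM + 1) with limma, and called at an adjusted p under 0.05 over all 13851 tested genes. Fold changes on that scale understate the change of genes of low FPKM. Of the set, 34 genes were tested (26 ligands and 8 receptors), and 17 of them reached 1 FPKM in all 18 libraries. Ccl17, Ccl22, Cxcl2, Cxcl6 and Cxcr6 reached 1 FPKM in all 6 CKD libraries and in fewer than 6 others. They would not have passed the filter without CKD libraries, and are said below to have entered the test only through CKD. Some SZ or NC libraries counted towards the filter for all of these but Ccl22. Xcl1 likewise needed CKD libraries beside those of SZ and NC. A gene that passed only through a group where it is high is favoured to differ. The other 28 genes are therefore also counted on their own. That removes the part of CKD libraries in the filter, not that of SZ libraries. Of the 34 tested genes, 7 reached 1 FPKM in no NC library. Among these, Ccl7, Ccl9 and Ccr2 are in the 28 through their 6 SZ libraries. Counts of the 28 against NC are thus not free of the filter. The marker genes of kidney epithelium were present in every group, with a summed level of 1614.5 to 2318 FPKM in SZ, 838 to 1694 FPKM in CKD and 2962 to 3938 FPKM in NC (10 genes). Libraries CKD 5, SZ 3 and CKD 2 stood apart, in that longer genes ran lower there, by -0.31, -0.25 and -0.21 on the log2 scale for each doubling of gene length (8189 genes), against -0.10 in CKD 1 and 0.01 to 0.11 in the other libraries. Scaling matters for all genes here: scaled to a fixed FPKM sum, the median log2 fold change of all tested genes was -0.12 in SZ against CKD, 0.22 in SZ against NC and 0.34 in CKD against NC, beside 0.01, -0.04 and -0.04 as deposited, and the share of calls that were higher was 14.5%, 92.8% and 83.7%, beside 37.9%, 59.1% and 48.4%. With plain library totals these shares were 17.9%, 88.3% and 77.6%. No called chemokine or receptor gene changed direction under either scaling.

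Most of the tested chemokine system was higher in CKD kidneys than in untreated ones. In CKD against NC, 26 of the 34 tested genes were higher, 2 were lower (Ccl28 and Ccr10) and 6 were not called, while 24.4% of all tested genes were higher and 26% lower (50.3% called in all). With SZ-A added to adenine, many of these genes lay between both other groups. In SZ against CKD, 16 of 34 were lower and 1 (Cx3cl1) was higher, while 6.82% of all tested genes were lower and 4.16% higher (11% called). Measured against untreated kidneys, 18 of 34 were still higher in SZ, while 12.5% of all tested genes were higher (21.1% called in either direction). In that comparison limma called 0 of the 34 lower, beside 8.61% of all tested genes; 1 (Ccr10) was lower at an unadjusted p under 0.05, and limma's voom also called 0. Among the 28 genes that passed the filter without the CKD libraries, 11 were lower and 1 higher in SZ against CKD, 15 were higher in SZ against NC, and 21 were higher and 2 lower in CKD against NC. Of all 13167 genes that passed in that way, 6.1% were lower and 4.37% higher in SZ against CKD, 11.5% were higher in SZ against NC, and 22.7% were higher and 27.1% lower in CKD against NC. Leaving out 1 library at a time, the count lower in SZ than in CKD ran from 11 (without SZ 4) to 18 (without CKD 1). Of the 17 calls in SZ against CKD, 9 held in every alternative in which the gene was tested (Ccl9, Ccl17, Ccl22, Ccl24, Cxcl1, Cxcl2, Cxcl13, Cxcr4 and Cxcr6), as did 16 of 18 in SZ against NC and 27 of 28 in CKD against NC. Among those 9 are Ccl17, Ccl22, Cxcl2 and Cxcr6, which entered the test only through CKD. The median log2 fold change of the 34 genes was -0.62 in SZ against CKD, 0.59 in SZ against NC and 1.56 in CKD against NC, beside 0.01, -0.04 and -0.04 for all tested genes. For the 28 genes it was -0.38, 0.74 and 1.58, beside 0.02, -0.05 and -0.06. These 3 comparisons share libraries, and the values of each stand side by side below without a test of one against another. Without CKD 2, CKD 5 and SZ 3, 13 genes were lower and 0 higher in SZ against CKD, 18 were higher in SZ against NC, and 25 were higher and 2 lower in CKD against NC.

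**Figure D1:**
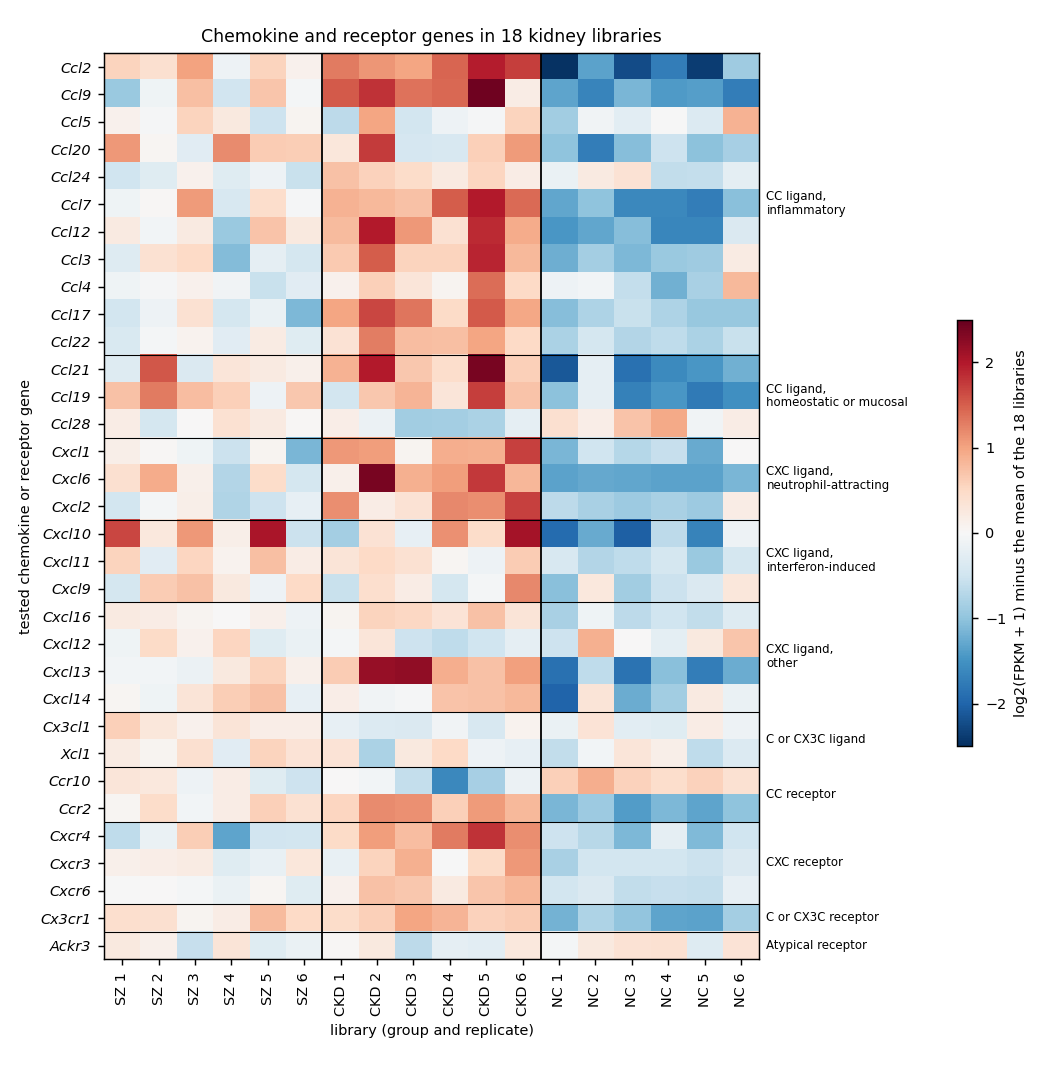
Level of 33 of the 34 tested chemokine and receptor genes in each of the 18 libraries, as log2(FPKM + 1) minus the mean of all libraries; columns are libraries of SZ, CKD and NC, and rows are grouped by class. Most rows are red across the CKD columns and blue across the NC columns, with SZ between them; Ccr10 and Ccl28 run the other way, and Cxcl10 differs widely among libraries of 1 group.

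**Figure D2:**
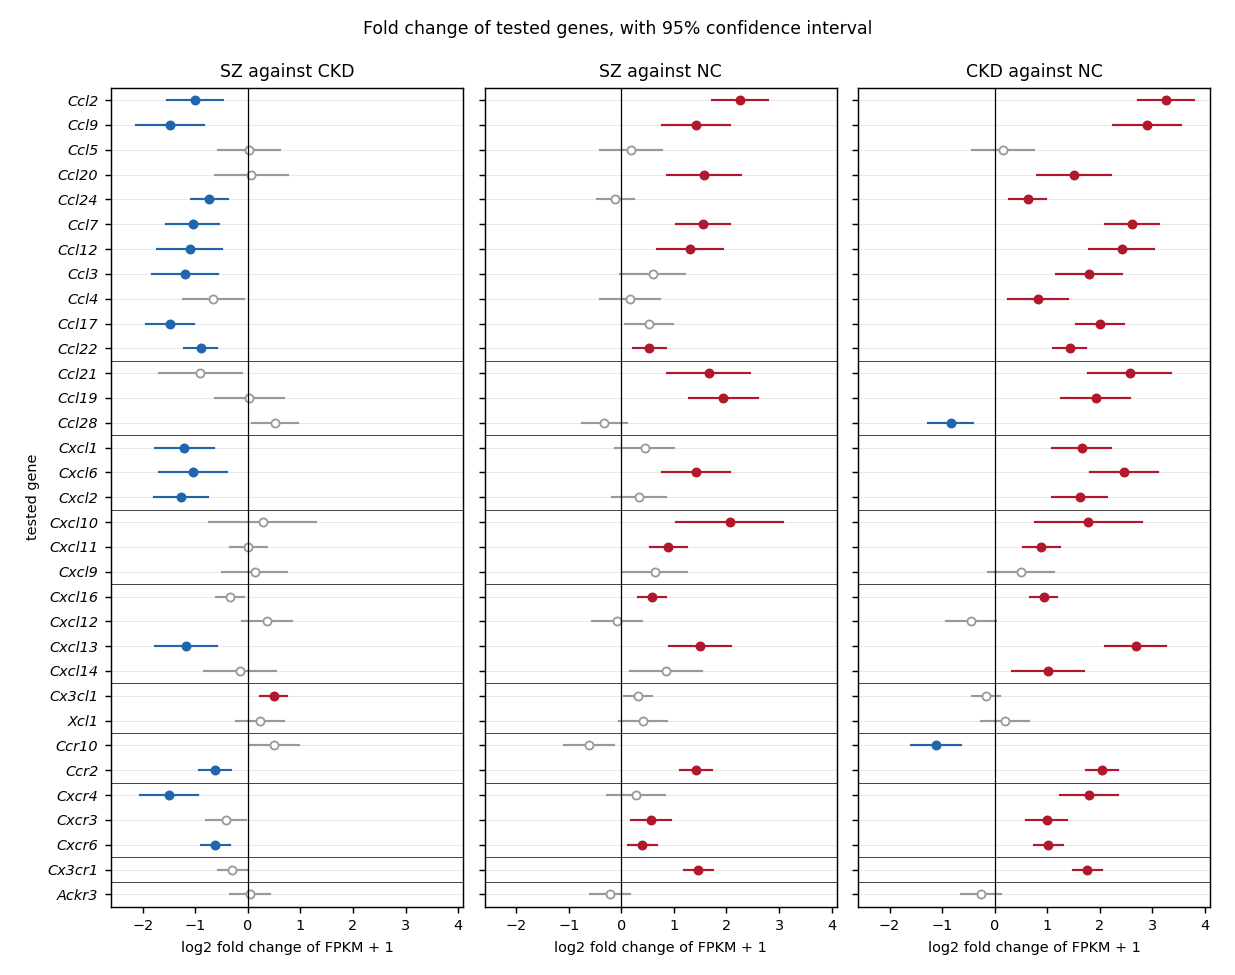
Log2 fold change of FPKM + 1 for 33 of the 34 tested genes in SZ against CKD, SZ against NC and CKD against NC, with 95% confidence intervals from limma; filled points are called (red higher, blue lower) and open points are not. The interferon-induced ligands lie at about 0 in SZ against CKD, while the inflammatory CC ligands and the neutrophil-attracting ligands lie mostly below it.

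The monocyte-attracting ligands of Ccr2 were higher in CKD than in NC and lower in SZ than in CKD. Ccl2, the main monocyte chemoattractant, ran at 10.8, 16.9 and 24.97 FPKM in SZ (lowest, median and highest of 6 libraries), at 24.7, 32.6 and 49.1 FPKM in CKD and at 1.33, 2.31 and 6.01 FPKM in NC. CKD and NC did not overlap, and SZ lay between them, touching CKD at its highest library. By median level Ccl2 held rank 7 of 54 in SZ, rank 3 in CKD and rank 16 in NC. On the log2 scale it was -1.01 in SZ against CKD (SE 0.26, adjusted p = 0.02), 2.25 in SZ against NC (SE 0.26, adjusted p = 9.8e-06) and 3.26 in CKD against NC (SE 0.26, adjusted p = 3.1e-08). The value in SZ against CKD was -0.90 both without CKD 5 and without SZ 4, and was then not called (adjusted p = 0.0553 and 0.0598). Ccl7, another ligand of Ccr2, ran at 1.51, 2.33 and 5.98 FPKM in SZ, at 4.55, 6.42 and 12.1 FPKM in CKD and at 0, 0.213 and 0.661 FPKM in NC. Its groups were ordered in the same way, with a log2 fold change of -1.05 in SZ against CKD (SE 0.24, adjusted p = 0.014) and 2.6 in CKD against NC (SE 0.24, adjusted p = 1.9e-07). With a pseudocount of 0.1 the value in SZ against CKD was -1.29 and not called (adjusted p = 0.0761). Voom without the filter gave -1.31, also not called (adjusted p = 0.0583). In CKD against NC the values reached 4.98. Ccl12, which binds Ccr2 in the mouse, averaged 2.41 ± 1.12 FPKM in SZ, 6.56 ± 3.39 FPKM in CKD and 0.376 ± 0.531 FPKM in NC (SD, n = 6 each). It was lower in SZ than in CKD by a log2 fold change of -1.11 (adjusted p = 0.025), a call lost in 9 of 29 alternatives, among them those without CKD 2, CKD 5, SZ 2 or SZ 4 (adjusted p 0.0504 to 0.0677) and voom (-1.41, adjusted p = 0.053). Ccl7 and Ccl12 are closely related copies, and reads may be shared between them.

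Ccr2, which brings monocytes out of the bone marrow and into tissue, moved with its ligands. Its level was 2.37, 3.31 and 4.30 FPKM in SZ (lowest, median, highest), 4.13, 5.78 and 7.03 FPKM in CKD and 0.343, 0.599 and 0.885 FPKM in NC. NC lay below every library of both adenine groups, and SZ overlapped CKD only at the edge. Ccr2 had the smallest adjusted p of the set in CKD against NC, at 2.04 on the log2 scale (SE 0.14, adjusted p = 9.9e-09). In SZ against CKD its log2 fold change was -0.62 (SE 0.14, adjusted p = 0.013), and in SZ against NC it was 1.42 (SE 0.14, adjusted p = 3.2e-06). Without CKD 2, CKD 5 and SZ 3 together the SZ against CKD value was -0.44 and no longer called (adjusted p = 0.0682). The set thus held 3 tested Ccr2 ligands and the receptor, all 4 called in the same directions in each comparison.

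The inflammatory ligands Ccl3, Ccl4 and Ccl5, which attract macrophages and T cells, did not share 1 pattern. Ccl3 was 1.56 ± 0.99 FPKM in SZ, 4.88 ± 2.57 FPKM in CKD and 0.682 ± 0.741 FPKM in NC (SD, n = 6 each), lower in SZ than in CKD (log2 fold change -1.2, adjusted p = 0.018, lost without SZ 4 at adjusted p = 0.0533) and higher in CKD than in NC (1.79, adjusted p = 7.5e-05). Ccl4 was 1.79 ± 0.435 FPKM in SZ, 3.58 ± 1.82 FPKM in CKD and 1.72 ± 1.44 FPKM in NC, with a call in CKD against NC alone (0.83, adjusted p = 0.017). Without CKD 2, CKD 5 and SZ 3 together the Ccl4 value was 0.57 and not called (adjusted p = 0.102). Ccl3 and Ccl4 overlap on opposite strands, and the strand setting of the counting is not stated, so reads of the pair cannot be told apart. Ccl5, best known from T cells, was called in none of the comparisons, with 4.95 ± 1.41 FPKM in SZ, 5.17 ± 2.83 FPKM in CKD and 4.46 ± 2.41 FPKM in NC; its log2 fold change in CKD against NC was 0.16 (interval -0.43 to 0.75) and turned below 0 in some alternatives.

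Ccl9, in the mouse a ligand of Ccr1 made by macrophages, was among the most responsive genes. It ran at 1.15, 2.89 and 5.91 FPKM in SZ, at 3.66, 10.5 and 21.2 FPKM in CKD and at 0.244, 0.555 and 0.854 FPKM in NC. Both adenine groups lay wholly above NC, while SZ and CKD overlapped. The log2 fold change was -1.48 in SZ against CKD (SE 0.31, adjusted p = 0.0092) and 2.89 in CKD against NC (SE 0.31, adjusted p = 6.7e-07). Ccl24, an eosinophil attractant acting on Ccr3, was raised less, with 2.61 ± 0.631 FPKM in SZ, 4.99 ± 0.883 FPKM in CKD and 2.98 ± 1.12 FPKM in NC (SD, n = 6 each). It was lower in SZ than in CKD (-0.74, adjusted p = 0.013) and did not differ detectably between SZ and NC (-0.11, interval -0.46 to 0.24; this sign turned under TPM scaling and under plain totals). Ccl20, the ligand of Ccr6 on type 17 T cells and dendritic cells, followed another course. Its level was 4.92 ± 2.16 FPKM in SZ, 5.15 ± 3.76 FPKM in CKD and 0.92 ± 0.496 FPKM in NC, higher in both adenine groups than in NC (1.58 and 1.51, adjusted p = 0.0025 and 0.0011) with no call between them (0.07, interval -0.63 to 0.77).

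Ccl17 and Ccl22, the ligands of Ccr4 on helper and regulatory T cells, were both lower in SZ than in CKD. Ccl17 ran at 0.098, 0.936 and 2.08 FPKM in SZ, at 2.31, 4.35 and 6.62 FPKM in CKD and at 0.133, 0.314 and 0.620 FPKM in NC. No CKD library overlapped SZ or NC, whereas SZ and NC overlapped. In SZ against CKD its value of -1.49 on the log2 scale (SE 0.22) had the smallest adjusted p of the set, 0.0021, though the gene was tested only because its CKD libraries reached 1 FPKM. Against NC, CKD was higher by 2.01 (SE 0.22, adjusted p = 7.8e-07). In SZ against NC it was 0.52 and not called (adjusted p = 0.096; without SZ 6 it was 0.68 and called, adjusted p = 0.0243, and it was also called under TPM scaling and with the lowess correction). Ccl22, whose entry is annotated as a long noncoding RNA in the table, ran at 0.328, 0.532 and 0.994 FPKM in SZ, at 1.21, 1.92 and 3.19 FPKM in CKD and at 0, 0.0761 and 0.266 FPKM in NC. Its 3 ranges were apart from each other. The log2 fold change was -0.89 in SZ against CKD (SE 0.15, adjusted p = 0.0033), 0.53 in SZ against NC (SE 0.15, adjusted p = 0.017) and 1.43 in CKD against NC (SE 0.15, adjusted p = 5.6e-07). Their receptor Ccr4 stayed below the filter, at medians of 0.521 FPKM in SZ, 0.887 FPKM in CKD and 0 FPKM in NC, which rest on 55, 122 and 4 fragments over 6 libraries each.

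**Figure D3:**
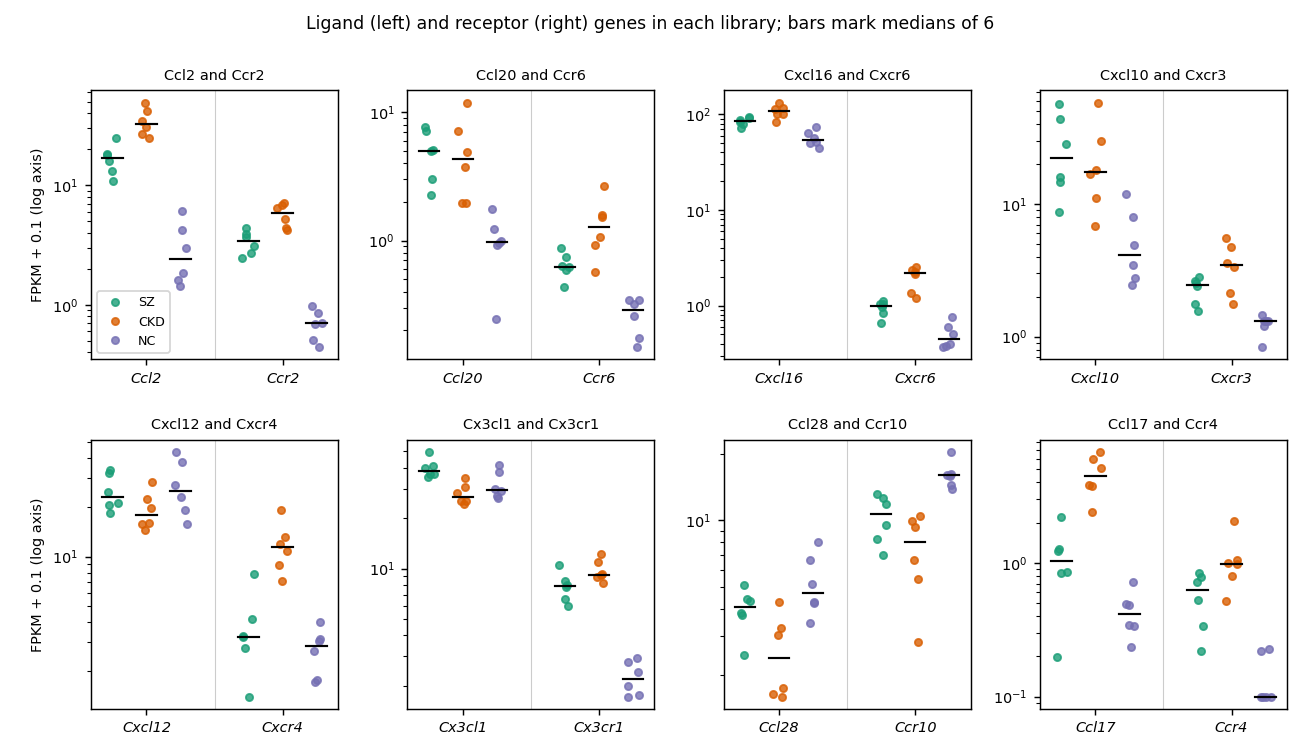
FPKM + 0.1 on a log axis for 8 ligand genes (left of each panel) and a receptor gene of each (right), 1 point per library of SZ, CKD and NC, with bars at the median of 6. Ccl2 with Ccr2 and Ccl17 with Ccr4 are highest in CKD on both sides of the panel, Cxcl12 and Cx3cl1 show little of the contrast between CKD and NC that Cxcr4 and Cx3cr1 show, and Ccl28 and Ccr10 are highest in NC.

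The neutrophil-attracting CXC ligands, which act on Cxcr2 in rodents, were higher in CKD than in NC and lower in SZ than in CKD for all 3 tested genes, of which Cxcl2 and Cxcl6 entered the test only through CKD. Cxcl2 ran at 0.104, 0.491 and 1.06 FPKM in SZ, at 1.11, 3.20 and 5.12 FPKM in CKD and at 0, 0.0633 and 1.11 FPKM in NC. SZ lay wholly below CKD and overlapped NC, and 1 NC library lay level with the lowest of CKD. Its log2 fold change was -1.27 in SZ against CKD (SE 0.25, adjusted p = 0.0064) and 1.61 in CKD against NC (SE 0.25, adjusted p = 3.6e-05). Cxcl1 was 1.73 ± 0.792 FPKM in SZ, 5.38 ± 2.26 FPKM in CKD and 1.01 ± 0.656 FPKM in NC (SD, n = 6 each), lower in SZ than in CKD (-1.21, adjusted p = 0.011) and higher in CKD than in NC (1.65, adjusted p = 5.8e-05). Cxcl6 was nearly absent from NC, at 0.0374 ± 0.0569 FPKM, beside 1.97 ± 1.203 FPKM in SZ and 5.499 ± 3.78 FPKM in CKD. Its call in SZ against CKD (-1.05, adjusted p = 0.037) was lost in 12 of 29 alternatives. Cxcl3 stayed below the filter; it was listed at 0 in all 6 NC libraries, at 0.0713 to 0.627 FPKM in SZ and at 0.491 to 2.09 FPKM in CKD. The receptor Cxcr2 was also below the filter, with medians of 0.235 FPKM in SZ, 0.517 FPKM in CKD and 0.052 FPKM in NC, and Cxcr1 did not pass 0.132 FPKM in any library. Cxcl1, Cxcl2 and Cxcl3 are close copies whose reads may be shared.

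The interferon-induced ligands of Cxcr3 were not called between SZ and CKD, while Cxcl10 and Cxcl11 were higher in both than in NC. Cxcl10 ran at 8.60, 22.1 and 56.3 FPKM in SZ, at 6.73, 17.4 and 57.9 FPKM in CKD and at 2.35, 4.06 and 11.7 FPKM in NC. It had the largest SE of the 34 genes, and all groups overlapped. The log2 fold change was 0.28 in SZ against CKD (SE 0.49, interval -0.74 to 1.30, adjusted p = 0.72), 2.07 in SZ against NC (SE 0.49, adjusted p = 0.0055) and 1.78 in CKD against NC (SE 0.49, adjusted p = 0.0052). Cxcl11, which also binds Ackr3, varied far less, at 12.5, 20.3 and 26.7 FPKM in SZ, at 14.1, 19.97 and 24.7 FPKM in CKD and at 7.68, 10.4 and 11.4 FPKM in NC. Both adenine groups lay wholly above NC and lay over each other. On the log2 scale it was 0.01 in SZ against CKD (SE 0.17, interval -0.34 to 0.36), 0.90 in SZ against NC (SE 0.17, adjusted p = 0.00085) and 0.88 in CKD against NC (SE 0.17, adjusted p = 0.00025). Cxcl9 averaged 2.91 ± 1.14 FPKM in SZ, 2.75 ± 1.88 FPKM in CKD and 1.58 ± 1.00 FPKM in NC (SD, n = 6 each) and was not called. With replicate number as a block Cxcl9 was called in CKD against NC (0.50, adjusted p = 0.0367) and in SZ against NC (0.63, adjusted p = 0.0289). It was also called in both with array weights (0.96 and 0.73, adjusted p = 0.0148 and 0.0361). TPM scaling gave a call in CKD against NC (0.78, adjusted p = 0.0372). The sign of Cxcl11 and of Cxcl9 in SZ against CKD turned in some alternatives. Cxcr3, the receptor of effector T cells, was 2.19 ± 0.507 FPKM in SZ, 3.42 ± 1.45 FPKM in CKD and 1.14 ± 0.214 FPKM in NC, higher in CKD than in NC (0.99, adjusted p = 0.00023). Cxcr3 was also called higher in SZ than in NC (0.57, adjusted p = 0.034), a call lost in 12 of 29 alternatives. In SZ against CKD it was not called (-0.42, adjusted p = 0.14; -0.55 and called without CKD 1, adjusted p = 0.0276, and -0.67 and called with array weights, adjusted p = 0.0137).

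**Figure D4:**
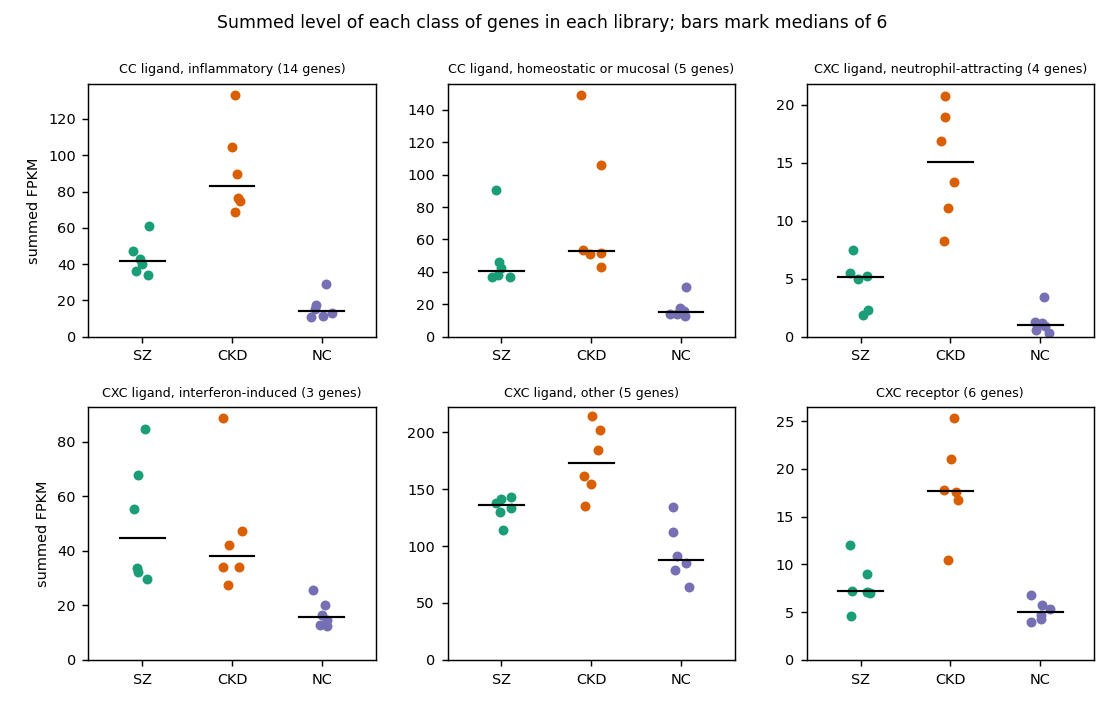
Summed FPKM of the genes of 6 classes in each library of SZ, CKD and NC, with bars at the median of 6; tested and untested genes of a class are both in the sum. In the inflammatory CC class and the neutrophil-attracting class the 6 SZ libraries lie below the 6 CKD libraries, and in the interferon-induced class SZ and CKD lie over each other above NC.

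Summed over all genes of a class, the 14 inflammatory CC ligands reached 34.1 to 60.8 FPKM in SZ, 68.8 to 133 FPKM in CKD and 10.7 to 29.1 FPKM in NC, so that the 3 groups did not overlap. For the 4 neutrophil-attracting ligands the sums were 1.86 to 7.45 FPKM in SZ, 8.30 to 20.8 FPKM in CKD and 0.31 to 3.39 FPKM in NC. The 3 interferon-induced ligands came to 29.7 to 84.9 FPKM in SZ, 27.4 to 88.9 FPKM in CKD and 12.5 to 25.8 FPKM in NC. All 21 receptors together reached 38.5 to 47.4 FPKM in SZ, 48.0 to 67.2 FPKM in CKD and 27.3 to 37.6 FPKM in NC.

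Cxcl16, a membrane-bound ligand of Cxcr6 that also takes up oxidised lipoprotein, was the most abundant of the 54 genes in every group. It ran at 72.6, 85.2 and 92.9 FPKM in SZ, at 83.8, 108 and 132 FPKM in CKD and at 44.8, 53.8 and 74.1 FPKM in NC. CKD and NC did not overlap, while SZ overlapped both at its ends. It made up 26.35% of the summed ligand level in the median SZ library, 24.95% in CKD and 32.32% in NC. In log2 terms it was -0.35 in SZ against CKD (SE 0.13, adjusted p = 0.078), 0.58 in SZ against NC (SE 0.13, adjusted p = 0.0029) and 0.93 in CKD against NC (SE 0.13, adjusted p = 9.6e-06). Its value in SZ against CKD was called under TPM scaling (-0.49, adjusted p = 0.0346), under plain totals (-0.47, adjusted p = 0.0283) and without CKD 1 (-0.42, adjusted p = 0.0228). Cxcl16 overlaps Zmynd15 on the other strand, a gene of 3.95, 4.25 and 3.82 FPKM on average in SZ, CKD and NC. Cxcr6, carried by tissue-resident T cells, ran at 0.563, 0.900 and 1.01 FPKM in SZ, at 1.10, 2.10 and 2.45 FPKM in CKD and at 0.268, 0.349 and 0.669 FPKM in NC. Its CKD range was apart from those of SZ and NC. The log2 fold change was -0.62 in SZ against CKD (SE 0.13, adjusted p = 0.0098), 0.40 in SZ against NC (SE 0.13, adjusted p = 0.04, lost in 10 of 29 alternatives) and 1.02 in CKD against NC (SE 0.13, adjusted p = 6.2e-06). Cxcr6 overlaps Fyco1, and the strand setting is not stated.

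Cxcl12, which holds stem cells and leukocytes in their niches through Cxcr4 and is cleared by Ackr3, was not called in any comparison. It ran at 18.4, 23.0 and 33.7 FPKM in SZ, at 14.3, 17.8 and 28.5 FPKM in CKD and at 15.6, 25.1 and 43.2 FPKM in NC, with all groups overlapping. Its log2 fold change was 0.36 in SZ against CKD (SE 0.23, interval -0.12 to 0.84) and -0.44 in CKD against NC (SE 0.23, interval -0.92 to 0.03; -0.58 and called without NC 1, adjusted p = 0.037). The receptor gene Cxcr4 differed far more, with 1.30, 3.15 and 7.73 FPKM in SZ, 7.003, 11.3 and 19.1 FPKM in CKD and 1.63, 2.77 and 3.92 FPKM in NC. CKD lay wholly above NC, and SZ spanned the NC range with 1 library reaching into CKD. On the log2 scale it was -1.5 in SZ against CKD (SE 0.26, adjusted p = 0.004), the most negative of the set on that scale, 0.29 in SZ against NC (SE 0.26, interval -0.27 to 0.84, adjusted p = 0.48) and 1.79 in CKD against NC (SE 0.26, adjusted p = 2.3e-05). With a pseudocount of 0.1, Ccl17 (-2.31) and Cxcl2 (-2.27) were further below 0 than Cxcr4 (-1.76) in SZ against CKD. Ackr3 ran at 2.55, 4.28 and 5.61 FPKM in SZ, at 2.40, 4.01 and 5.39 FPKM in CKD and at 3.23, 5.503 and 5.93 FPKM in NC. The ranges overlapped throughout, and its log2 fold change was 0.04 in SZ against CKD (SE 0.18, interval -0.34 to 0.42) and -0.26 in CKD against NC (SE 0.18, interval -0.64 to 0.12), both of which turned sign under TPM scaling and plain totals.

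Cx3cl1 (fractalkine), an adhesive ligand anchored in endothelial and epithelial membranes, was the 1 tested gene higher in SZ than in CKD. It ran at 35.1, 38.3 and 49.4 FPKM in SZ, at 24.3, 26.8 and 34.6 FPKM in CKD and at 26.1, 29.4 and 41.6 FPKM in NC. SZ lay wholly above CKD, while CKD and NC overlapped. In log2 terms it was 0.49 in SZ against CKD (SE 0.12, adjusted p = 0.02), 0.32 in SZ against NC (SE 0.12, adjusted p = 0.074; 0.62 under TPM scaling and 0.53 under plain totals, both called, adjusted p = 0.0108 and 0.00849) and -0.17 in CKD against NC (SE 0.12, interval -0.43 to 0.09; 0.27 under TPM scaling and 0.17 under plain totals). The call in SZ against CKD did not hold under TPM scaling (0.35, adjusted p = 0.167), under plain totals (0.37, adjusted p = 0.0753), without CKD 2, CKD 5 and SZ 3 together (adjusted p = 0.0547), or without CKD 5, SZ 1 or SZ 4 (adjusted p 0.0513 to 0.0528). The value in SZ against NC was also called with array weights, with the lowess correction, without NC 2 and without those 3 libraries (0.32 to 0.41). Its receptor Cx3cr1, found on patrolling monocytes, kidney macrophages and dendritic cells, ran at 5.88, 7.75 and 10.4 FPKM in SZ, at 8.10, 9.11 and 12.1 FPKM in CKD and at 1.63, 2.11 and 2.84 FPKM in NC. Both adenine groups lay wholly above NC and overlapped each other. The log2 fold change was -0.30 in SZ against CKD (SE 0.13, interval -0.58 to -0.02, adjusted p = 0.15), 1.46 in SZ against NC (SE 0.13, adjusted p = 1e-06) and 1.76 in CKD against NC (SE 0.13, adjusted p = 2.4e-08). Xcl1, the ligand of Xcr1 on cross-presenting dendritic cells, lay near the filter at 1.06 ± 0.394 FPKM in SZ, 0.80 ± 0.532 FPKM in CKD and 0.557 ± 0.421 FPKM in NC (SD, n = 6 each), and was not called.

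Among the homeostatic ligands, Cxcl13 was lower with SZ-A, while for Ccl21 and Ccl19 no such call was made. Cxcl13, the B cell attractant of lymphoid follicles, ran at 11.53, 13.1 and 19.3 FPKM in SZ, at 20.5, 26.1 and 63.6 FPKM in CKD and at 2.82, 4.002 and 7.86 FPKM in NC. The 3 ranges were apart from each other. Its log2 fold change was -1.18 in SZ against CKD (SE 0.28, adjusted p = 0.016), 1.5 in SZ against NC (SE 0.28, adjusted p = 0.0009) and 2.68 in CKD against NC (SE 0.28, adjusted p = 5.2e-07). Its receptor Cxcr5 stayed below the filter at medians of 0.883 FPKM in SZ, 0.624 FPKM in CKD and 0.868 FPKM in NC. Ccl21, which guides dendritic cells and T cells through Ccr7 along lymphatics, ran at 16.6, 24.5 and 64.8 FPKM in SZ, at 29.6, 37.5 and 115 FPKM in CKD and at 4.20, 6.81 and 18.2 FPKM in NC. Single high libraries stretched SZ and NC, and SZ overlapped both others. The log2 fold change was -0.90 in SZ against CKD (SE 0.38, interval -1.70 to -0.11, adjusted p = 0.12), 1.66 in SZ against NC (SE 0.38, adjusted p = 0.0043) and 2.57 in CKD against NC (SE 0.38, adjusted p = 2.4e-05). With replicate number as a block, the value in SZ against CKD was called (adjusted p = 0.0281). It was -0.35 with array weights and -0.28 without CKD 2, CKD 5 and SZ 3 (adjusted p = 0.533 and 0.655). Ccl19, the other ligand of Ccr7, averaged 15 ± 4.78 FPKM in SZ, 15.7 ± 8.47 FPKM in CKD and 3.32 ± 2.08 FPKM in NC (SD, n = 6 each), with a log2 fold change of 0.02 in SZ against CKD (interval -0.63 to 0.68). Ccr7 itself was below the filter at medians of 0.565 FPKM in SZ, 0.887 FPKM in CKD and 0.0658 FPKM in NC. Cxcl14, a ligand of epithelia, was higher in CKD than in NC (1.01, adjusted p = 0.015), at 9.06 ± 2.74 FPKM in SZ, 10.2 ± 3.10 FPKM in CKD and 5.27 ± 3.41 FPKM in NC.

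Ccr10 and Ccl28 ran against the rest. Ccr10, the receptor of skin- and mucosa-homing lymphocytes, was by median level the most abundant receptor gene in NC and in SZ, though not in CKD. It made up 24.9% of the summed receptor level in the median SZ library, 12.4% in CKD and 52.9% in NC. It ran at 6.90, 10.6 and 13.0 FPKM in SZ, at 2.72, 7.86 and 10.4 FPKM in CKD and at 13.7, 15.8 and 20.2 FPKM in NC. Both adenine groups lay wholly below NC and overlapped each other. On the log2 scale it was 0.50 in SZ against CKD (SE 0.22, interval 0.03 to 0.98, adjusted p = 0.15), -0.61 in SZ against NC (SE 0.22, adjusted p = 0.06) and -1.12 in CKD against NC (SE 0.22, adjusted p = 0.00047). The value in SZ against NC was called without CKD 1 or CKD 4 (adjusted p = 0.0486 and 0.0139), since those libraries enter the shared estimate of the spread. Ccl28, the mucosal ligand of Ccr10, was 3.88 ± 0.891 FPKM in SZ, 2.503 ± 1.10 FPKM in CKD and 5.19 ± 1.71 FPKM in NC (SD, n = 6 each), lower in CKD than in NC (-0.84, adjusted p = 0.0024) and not called in SZ against CKD (0.51, adjusted p = 0.11; 0.64 and called without CKD 1, adjusted p = 0.0303). Ccl27, the other Ccr10 ligand, stayed below the filter and overlaps Il11ra1, a gene of 18.5, 19.7 and 21.9 FPKM on average in SZ, CKD and NC.

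The ranges of the 6 libraries of a group add a view without a model. In SZ against CKD, 8 of the 34 genes lay wholly lower, among them Ccl3, Ccl17, Ccl22, Ccl24, Cxcl2, Cxcl13 and Cxcr6, and 1 wholly higher (Cx3cl1), beside 1.63% and 0.628% of all tested genes. Of the 28 genes that passed the filter without CKD, 4 lay wholly lower, beside 1.37% of all such genes. In SZ against NC, 13 lay wholly higher and 1 wholly lower (Ccr10), beside 8.86% and 5.7%. In CKD against NC, 20 lay wholly higher and 1 wholly lower (Ccr10), beside 14.2% and 12.2%. The genes wholly higher than NC include some that entered the test only through CKD. These are Ccl22 and Cxcl6 in both comparisons, and Ccl17 and Cxcr6 in CKD against NC. Within CKD, library 1 had the lowest value of its group for 14 of the 34 genes, and libraries 5 and 6 had the highest for 10 each. Within SZ, library 4 was the lowest for 9 genes and library 3 the highest for 11, and within NC, library 1 was the lowest for 14 and library 6 the highest for 13.

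Below the filter stood 20 genes, 10 of which reached 1 FPKM in some library (Ccl11, Ccl26, Ccl27, Ccr4, Ccr6, Ccr7, Ccr8, Cxcl3, Cxcr5 and Xcr1). Fitted without the filter, 11 of the 20 were higher in CKD than in NC (Ackr1, Ackr2, Ccl11, Ccr3, Ccr4, Ccr6, Ccr7, Ccr8, Cxcl3, Cxcr2 and Xcr1), beside 17.6% of all 23814 genes in that fit, and Ackr2 and Cxcl3 were lower in SZ than in CKD (adjusted p = 0.0444 and 0.0123), beside 3.19% of all genes. By voom without the filter Ackr1 was not called in CKD against NC (adjusted p = 0.087). Several of these calls rest on few fragments. Ackr2, which scavenges inflammatory CC ligands, had 21 fragments over the SZ libraries, 136 over the CKD libraries and 13 over the NC libraries. Xcr1 had 373, 565 and 123 fragments and Ccr6 had 259, 647 and 66 in SZ, CKD and NC. Ccl26 differed from the others, with 14 fragments in SZ, 29 in CKD and 49 in NC, and was lower in SZ than in NC (adjusted p = 0.0131), as were 4.74% of all genes in that fit. The rest of the low genes (Ccl1, Ccl25, Ccr1l1, Ccr9, Cxcl17 and Cxcr1) did not reach 1 FPKM in any library and were not called in CKD against NC.

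Many of these genes lie in runs on the chromosomes (build mRatBN7.2 here). The run of Ccl2, Ccl7, Ccl11, Ccl12 and Ccl1 spans 125.7 kb (chr10:67005424-67131159), and its 3 tested genes were all lower in SZ than in CKD and all higher in CKD than in NC. On chromosome 14, Cxcl2, Cxcl1, Cxcl3 and Cxcl6 span 132.0 kb (chr14:17181062-17313093), with 3 of 3 tested genes lower in SZ than in CKD. Of these 3, Cxcl2 and Cxcl6 entered the test only through CKD. The nearby run of Cxcl11, Cxcl10 and Cxcl9 spans 39.0 kb (chr14:15689424-15728435), where limma called 0 of 3 in SZ against CKD (0 at an unadjusted p under 0.05, and 0 by limma's voom) and 2 of 3 higher in CKD than in NC. On chromosome 19, Cx3cl1 lies between Ccl17 and Ccl22 within 62.3 kb (chr19:10202128-10264400), where it was higher and both neighbours lower in SZ than in CKD. Ccl17 and Ccl22 likewise entered the test only through CKD. Of all tested genes, 6.82% were lower and 4.16% higher in SZ against CKD, and 24.4% were higher in CKD against NC. A link between position and these calls was not tested.

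Genes around the chemokine system were read from lists. Their counts stand beside 24.4% higher and 26% lower of all tested genes in CKD against NC. In SZ against CKD 6.82% of all tested genes were lower, and in SZ against NC 12.5% were higher. Among 6 tested chemokine-related genes whose symbols fall outside the name rule, 4 were higher in CKD than in NC (Ccrl2, Cklf, Cmklr1 and Pf4), Mif was lower (-0.53, adjusted p = 0.0314), and the same 4 were lower in SZ than in CKD. Pf4, a CXC chemokine of platelets and macrophages, ran at 3.30, 5.19 and 9.34 FPKM in SZ, at 6.61, 17.2 and 30.7 FPKM in CKD and at 1.03, 2.06 and 4.45 FPKM in NC. Of 38 tested genes of signalling and adhesion downstream of the receptors, 15 were lower in SZ against CKD (median log2 fold change -0.28), 21 higher in SZ against NC (0.45), and 32 higher and 1 lower in CKD against NC (0.82). The leukocyte integrin gene Itgam had the smallest adjusted p of that list in CKD against NC (2.97, adjusted p = 2.1e-08) and its partner Itgb2 in SZ against CKD (-1.19, adjusted p = 0.0065). Rgs1, a regulator of G protein signalling, had a larger fold change in SZ against CKD (-1.83, adjusted p = 0.0146). Gnai1, a Gi subunit, was the 1 gene lower in CKD than in NC (-0.84, adjusted p = 0.0045). Another list held cytokines, receptors and factors that induce chemokine genes together with Nfkbia and Tnfaip3, which restrain nuclear factor kappa B. Of its 13 tested genes, 3 were lower in SZ than in CKD (Il1b, Nfkbiz and the inhibitor gene Nfkbia), 10 higher in SZ than in NC and 11 higher in CKD than in NC. Il1b, the interleukin that induces many of these ligands, had a log2 fold change of -1.08 in SZ against CKD (adjusted p = 0.011). Irf1, a factor of the interferon response, had -0.49 and was not called there (adjusted p = 0.16), beside 1.61 in SZ against NC (adjusted p = 7.9e-05) and 2.10 in CKD against NC (adjusted p = 7.9e-07). Ifng lay at medians of 0.0546 FPKM in SZ, 0.239 FPKM in CKD and 0 FPKM in NC.

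Markers of several types of leukocyte, though not of all, were higher in CKD than in NC. Most tested macrophage and monocyte markers were also lower in SZ than in CKD. For the other leukocyte types, most tested markers were not called in SZ against CKD. Over all tested genes, 24.4% were higher and 26% lower in CKD against NC, and 6.82% were lower in SZ against CKD. In bulk tissue, fewer cells of a type and less RNA per cell cannot be told apart. The summed level of 15 macrophage and monocyte markers was 462 to 1015 FPKM in SZ, 1108 to 2340 FPKM in CKD and 120 to 229 FPKM in NC, with 12 of 14 tested markers lower in SZ than in CKD and 14 of 14 higher in CKD than in NC; Marco stayed at medians of 0 in all groups. For 9 T cell markers the sums were 16.1 to 26.7, 18.1 to 51.2 and 4.53 to 8.34 FPKM in SZ, CKD and NC, with 3 of 8 tested markers lower in SZ than in CKD and 8 of 8 higher in CKD than in NC. The sums of 9 neutrophil markers were 17.1 to 29.6 FPKM in SZ, 17.6 to 58.4 FPKM in CKD and 5.74 to 17.0 FPKM in NC. Of 4 tested markers, 1 was lower in SZ than in CKD (Csf3r) and 4 were higher in CKD than in NC. The largest part of these sums was Fcgr3a, at medians of 15.4 FPKM in SZ, 16.4 FPKM in CKD and 7.75 FPKM in NC. Elane had medians of 0 in all groups, and Mpo, Ltf and Camp reached at most 0.43 FPKM in any library. Mmp8 had medians of 0.132 FPKM in SZ, 0.0748 FPKM in CKD and 0.109 FPKM in NC. Dendritic cell markers (7 genes) came to 10.6 to 16.9 FPKM in SZ, 14.8 to 36.3 FPKM in CKD and 5.21 to 9.34 FPKM in NC, with 2 of 5 tested lower in SZ than in CKD. B and plasma cell markers (8 genes) came to 64.9 to 122 FPKM in SZ, 93.0 to 149 FPKM in CKD and 55.8 to 88.3 FPKM in NC, with 4 of 4 tested higher in CKD than in NC and adjusted p of 0.0567 to 0.592 in SZ against CKD. NK cell markers (6 genes) came to 3.34 to 8.25 FPKM in SZ, 3.50 to 7.16 FPKM in CKD and 3.44 to 8.26 FPKM in NC, with a median log2 fold change of 0.03 in CKD against NC over the 4 tested. Eosinophil and mast cell markers (7 genes) came to 2.88 to 8.99 FPKM in SZ, 4.54 to 12.1 FPKM in CKD and 5.34 to 9.64 FPKM in NC, with Prg2 and Tpsab1 at medians of 0. Most of that sum was Kit, at medians of 7.44 FPKM in SZ, 6.39 FPKM in CKD and 5.87 FPKM in NC. The mast cell gene Cpa3 ran at 0 to 0.427 FPKM in SZ and 0.217 to 1.40 FPKM in CKD and was listed at 0 in all NC libraries. Fibroblast and mural markers (8 genes) ran at 154 to 327 FPKM in SZ, 269 to 645 FPKM in CKD and 67.0 to 141 FPKM in NC, with 2 of 7 tested lower in SZ than in CKD and 7 of 7 higher in CKD than in NC. Endothelial markers (8 genes) ran at 99.2 to 126 FPKM in SZ, 88.9 to 116 FPKM in CKD and 113 to 159 FPKM in NC, with 3 of 8 lower in CKD than in NC, beside 26% of all tested genes. The part of these cell types in the chemokine and receptor values was not tested.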

How the data were processed

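Kidney RNA of 18 libraries was sequenced after Trizol extraction and an Illumina TruSeq RNA kit, per the labels' protocols. HISAT2 2.0.5 and the build mRatBN7.2 are named in the submitters' processing notes. The counter, the annotation release and how strand was handled are not stated there. The authors deposited 1 table of FPKM for 32116 genes, of which 4.84% of rows carry no gene name. Multiplied by gene length, the values of each library fell on whole steps (tolerance 0.01), and these steps gave the fragments behind them; the library sizes used by the authors averaged 1.04 (SZ), 1.14 (CKD) and 0.896 (NC) times the fragment totals.

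Genes with at least 1 FPKM in at least 6 libraries entered limma 3.58.1 (R 4.3.3) on the log2(FPKM + 1) scale. The 3 groups of 18 libraries shared 1 trended fit, tests were 2-sided, and p-values were adjusted by Benjamini and Hochberg over 13851 genes per comparison. Every adjusted p in the text comes from limma. Intervals are at 95%. The step was checked on simulated data. Full values are given for the 8 ligands and 6 receptors of highest mean FPKM and the 6 genes of smallest adjusted p in SZ against CKD and in CKD against NC; the other tested genes are given more briefly. The genes, lists, roles and alternatives were chosen with earlier results of these data known. Alternatives were a pseudocount of 0.1, no filter, a filter at a mean of 5 FPKM, TPM scaling, plain totals, only the 2 groups compared, array weights, limma's voom on recovered fragments, a replicate block, and libraries left out. Voom without the filter and a lowess correction for gene length were added after seeing the data. Genes on 1 chromosome less than 1 Mb apart form a run. RefSeq promoters carry build GRCr8 coordinates, the table mRatBN7.2 coordinates. The values of 1 tested gene are not reported here, though it stays in the counts and sums.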

Additional observations from a re-analysis of the deposited data

Results flagged for a closer look

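Over 34 tested genes and 3 groups, 102 sets of 6 libraries were examined. In 10 of them 1 library lay far from the other 5 by Dixon's criterion, and it was the highest library each time. By chance the criterion flags about 1 in 20 sets of normally distributed values. The FPKM values were not transformed and the sets share libraries, so the count of 10 cannot be judged against that rate. Library NC 6 stood out for 5 genes, Ccl3 (2.17 FPKM, the others at most 0.535), Ccl5 (9.07, the others at most 4.45), Ccl12 (1.40, the others at most 0.479), Cxcl2 (1.11, the others at most 0.195) and Cxcl6 (0.147, the others at most 0.0393). Library NC 2 stood out for Ccl19 (7.32 FPKM, the others at most 3.78), Ccl21 (18.2, the others at most 8.78) and Ccr10 (20.2, the others at most 16.1). Ccl21 was also high in SZ 2 (64.8 FPKM, the others at most 26.6), and Ccl4 in CKD 5 (7.10 FPKM, the others at most 3.69).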

How the results depend on the processing

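Counts of called chemokine and receptor genes moved by over 1.5 times in these cases. With a mean of at least 5 FPKM, which leaves 14 of them, 11 were higher and 1 lower in CKD against NC, 4 lower in SZ against CKD and 9 higher in SZ against NC. In SZ against CKD, 0 were higher under TPM scaling, plain totals, and without CKD 2, CKD 5 and SZ 3; in SZ against NC, 1 (Ccr10) was lower with only the 2 groups, array weights, the replicate block and the lowess correction. Leaving out 1 library at a time gave 0 to 2 higher in SZ against CKD and 0 to 1 lower in SZ against NC. No called gene turned sign. Uncalled ones did. Under TPM scaling and plain totals the values were 0.114 and 0.0245 (Ackr3) and 0.273 and 0.168 (Cx3cl1) in CKD against NC; -0.0834 and -0.0683 (Ackr3), -0.116 and -0.0978 (Ccl19), -0.0382 and -0.0301 (Ccl20), -0.0943 and -0.0775 (Ccl5) and -0.128 and -0.110 (Cxcl11) in SZ against CKD; and 0.108 and 0.0455 (Ccl24) and 0.210 and 0.125 (Cxcl12) in SZ against NC, with Ackr3 at 0.0306 under TPM scaling. Array weights gave -0.108 (Ccl5), -0.0923 (Cxcl10), -0.180 (Cxcl11) and -0.229 (Cxcl9) in SZ against CKD and 0.0487 (Cxcl12) in SZ against NC. The lowess correction gave Ackr3 -0.133 in SZ against CKD. With 1 library, or CKD 2, CKD 5 and SZ 3, left out, values in SZ against CKD ran from -0.0742 to 0.186 (Ackr3), -0.196 to 0.285 (Ccl19), -0.111 to 0.578 (Ccl20), -0.112 to 0.214 (Ccl5), -0.0899 to 0.131 (Cxcl11), -0.00589 to 0.346 (Cxcl9) and -0.0379 to 0.328 (Xcl1); Ccl5 in CKD against NC ran from -0.0552 to 0.358, and Cxcl12 in SZ against NC from -0.224 to 0.0585. The cause was not tested. The replicate numbers did not pair libraries (same-number correlations from -0.36 to 0.23, 1 of 18 libraries closest to its own number); with the block 17 were lower and 1 higher in SZ against CKD, 18 higher and 1 lower in SZ against NC, and 27 higher and 2 lower in CKD against NC. Few fragments limit many of the 20 genes below the filter, though not all. Ccr6, Ccr7 and Xcr1 had 647, 543 and 565 fragments over the CKD libraries.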
